A study of Mus musculus with 6 samples.

Results

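The elastic fibre and fibulin genes described here are Eln, Fbn1, Fbn2, Fbln1, Fbln2, Fbln5, Efemp1, Efemp2, Emilin1 and Mfap5. They were taken by gene symbol from a table of counts for 24061 mouse genes, and all 10 had a row and were tested. A row for Smim6, whose former symbols include Eln, held 4 counts in 1 library and was not counted as a member. The table covers 6 libraries of lung fibroblasts kept in culture, isolated from fibrotic lungs of mice with a TGF-alpha transgene. Both groups carried that transgene: 3 libraries came from cells given a control siRNA (libraries 1 to 3), and 3 from cells given an siRNA directed at Wt1, a zinc finger transcription factor (libraries 4 to 6). The labels do not name the promoter behind the transgene, the age of the mice or the interval between siRNA and harvest. Nor do they say that the libraries of a group were separate cultures or animals, so the spread behind each p-value is that of these libraries and could be technical.

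Elastic fibres give lung tissue its recoil. Their core is elastin, which is laid down on a scaffold of microfibrils built from fibrillins, and fibulins and EMILIN-1 link the parts and guide assembly. Lysyl oxidases then crosslink the elastin monomers. Fibroblasts, smooth muscle cells and mesothelial cells of the lung can all make these proteins.

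Library totals were 26141921 to 32085698 counts, and levels are given as CPM, counts per 1e6 counts of the library after TMM scaling. Wt1 stood at 48.8 to 55.7 CPM in the controls and at 7.92 to 11.4 CPM after Wt1 siRNA. Summed fibroblast markers (Col1a1, Col1a2, Col3a1, Pdgfra, Pdgfrb, Dcn, Lum, Thy1 and Vim) reached 21201 to 30443 CPM in the controls and 32962 to 40187 CPM after Wt1 siRNA. Of these 9 markers 5 were higher and 2 lower, Col3a1 and Pdgfra, at an adjusted p below 0.05 (edgeR). Among all genes tested 9.05% were higher and 10.3% lower. Mean Col1a1 went from 7982 to 17421 CPM, and mean Pdgfra from 1181 to 523 CPM. The 7 smooth muscle markers summed to 439 to 500 CPM in the controls and 379 to 446 CPM after Wt1 siRNA, with 1 lower, Smtn. Of 6 mesothelial markers 3 were higher (Msln, Krt19 and Nkain4) and 2 lower (Upk3b and Lrrn4), while the summed level was 175 to 225 CPM in the controls and 141 to 184 CPM after Wt1 siRNA. Pericyte markers summed to at most 35.5 CPM, epithelial markers to at most 17.6 CPM with Scgb1a1 at 0 counts in all libraries, and leukocyte markers to at most 30.3 CPM. Of these 3 lists no gene was called by edgeR (0 higher, 0 lower). At an unadjusted p below 0.05 there were 1 higher and 2 lower, with DESeq2 1 higher and 2 lower, and with limma-voom 1 higher. Among all 14190 genes DESeq2 called 1575 higher and 1702 lower, and limma-voom 1371 and 1452. No number for all genes is given here for the unadjusted p. Endothelial markers summed to 76.1 to 115 CPM, with Kdr lower, a call lost on leaving out library 1, 3 or 4. The part of these other cell types in the results below was not tested, and in bulk RNA fewer cells of a type cannot be told apart from less RNA per cell.

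After Wt1 siRNA, the 10 genes did not move as a block. Fbln5, Fbn1 and Fbn2 rose, by 2.93-fold, 1.57-fold and 2.10-fold. Efemp2 and Emilin1 fell, by 1.46-fold and 1.47-fold. Eln, the elastin gene itself, and Fbln1, Fbln2, Efemp1 and Mfap5 did not pass an adjusted p of 0.05 (edgeR quasi-likelihood test, Benjamini-Hochberg over 14190 genes). Thus 3 of 10 were higher, where 9.05% of all genes tested were higher, and 2 of 10 were lower, where 10.3% of all genes were lower and 19.3% were called in either direction. The median log2 fold change of the 10 genes was 0.18, beside 0.00 for all genes tested. The 10 genes were chosen with earlier results of these data known, so these counts and this median only describe them. For 6 of the 10 genes every library of one group lay beyond the other group (the 5 called genes and Mfap5), which held for 36.4% of all genes tested.

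**Figure D1:**
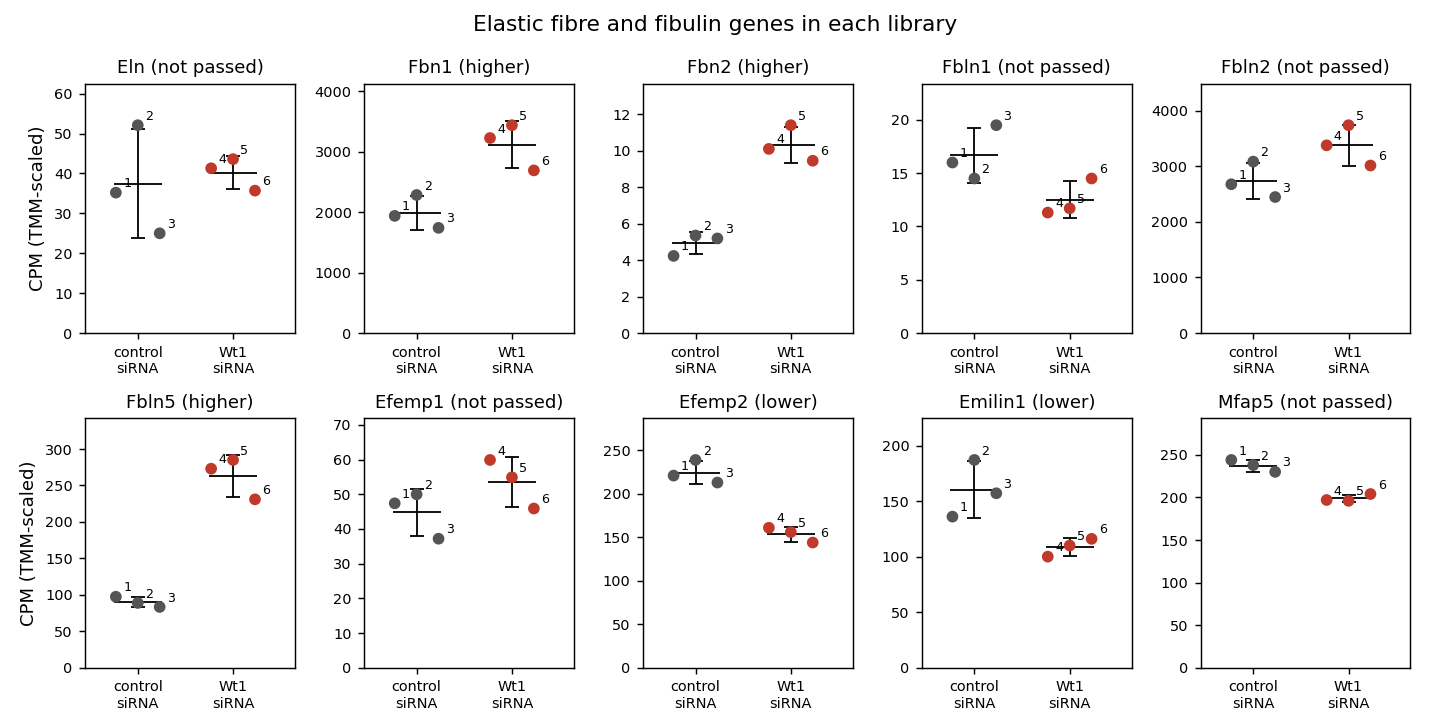
CPM (vertical axes, starting at 0) of the 10 genes in the control siRNA libraries 1 to 3 (grey) and the Wt1 siRNA libraries 4 to 6 (red), with the group mean and SD (n = 3) as bars. Fbln5, Fbn1 and Fbn2 lie higher in every Wt1 siRNA library than in any control, Efemp2, Emilin1 and Mfap5 lie lower, and the groups overlap for the other genes.

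**Figure D2:**
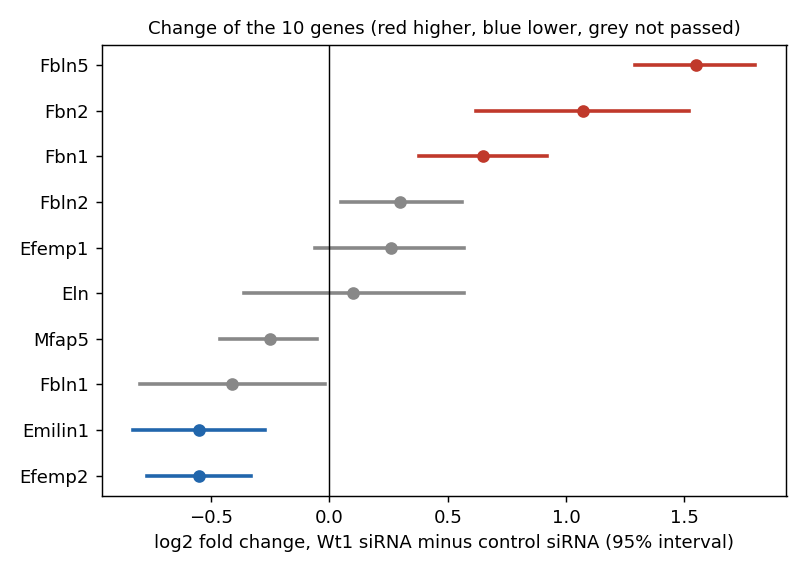
Log2 fold change (horizontal axis, Wt1 siRNA minus control siRNA) of each gene with its 95% interval from the edgeR fit. Red and blue genes passed an adjusted p of 0.05, from Fbln5 at 1.55 to Emilin1 at -0.55, and the grey genes did not pass.

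Levels of different genes were compared as CPM per kb of annotated exon, because long transcripts collect more reads. On this scale the control libraries held most of Fbln2, with a mean of 429 ± 50.7 CPM per kb (SD, n = 3), and of Fbn1, with 164 ± 22.7. Mfap5 (66.1 ± 2.04), Efemp2 (59.3 ± 3.58), Emilin1 (32.4 ± 5.23), Efemp1 (22.0 ± 3.32) and Fbln5 (13.0 ± 1.02) followed in that order, and the libraries of neighbours in this order did not overlap. Eln at 4.62 ± 1.69 and Fbln1 at 3.81 ± 0.583 CPM per kb overlapped, and Fbn2 was lowest at 0.372 ± 0.0458. After Wt1 siRNA Fbln5 stood at 38.1 ± 4.13 CPM per kb and moved from the 7th to the 5th place, where its libraries overlapped with those of Efemp2 at 40.5 ± 2.25. Emilin1, at 22.0 ± 1.68, took the 7th place and overlapped with Efemp1 at 26.3 ± 3.49. The exon length merges all annotated transcripts, so that a gene with long or little used exons is placed too low on this scale.

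**Figure D3:**
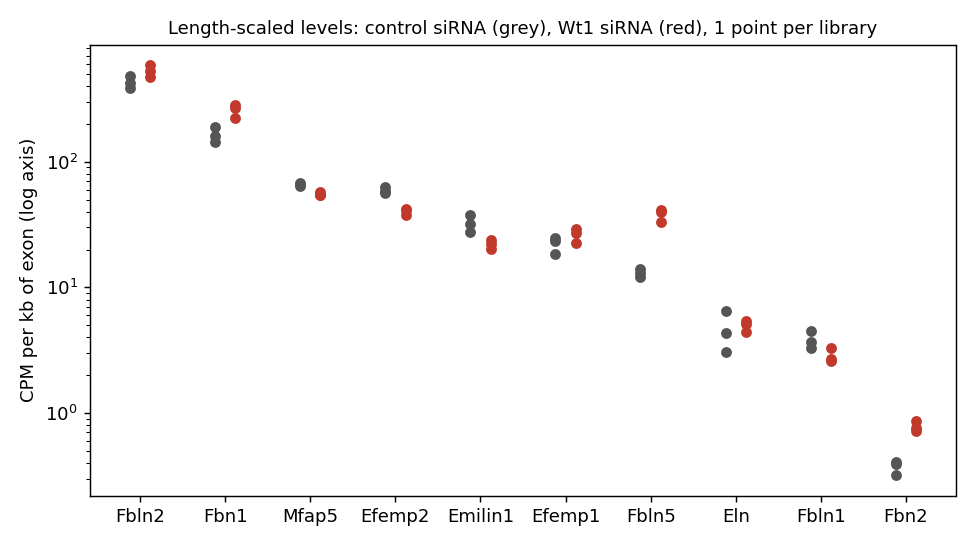
CPM per kb of exon (vertical log axis) of the 10 genes, 1 point per library, in the order of the control means. Fbln2 and Fbn1 are the most abundant in both groups, and Fbln5 moves from the 7th to the 5th place, from 13.0 to 38.1 CPM per kb, as Emilin1 moves from the 5th to the 7th.

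Elastin is the core protein of the fibre. Its gene is Eln (gene ID 13717; chromosome 5, 134702595 to 134747368; positions here are those of RefSeq on GRCm38). Eln measured 35.2, 52.1 and 25.0 CPM in control libraries 1 to 3 and 41.3, 43.6 and 35.7 CPM in Wt1 siRNA libraries 4 to 6. The Wt1 siRNA values all lay inside the range of the controls, whose highest library was 2 and lowest was 3. The means were 37.4 ± 13.7 and 40.2 ± 4.03 CPM (SD, n = 3), with a log2 fold change of 0.10 ± 0.21 (SE; edgeR adjusted p = 0.797). The 95% interval of that change ran from -0.36 to 0.57, so a moderate change in either direction could not be detected or dismissed with this spread. Without control library 3 the log2 fold change was -0.12. In GENCODE the exons of Eln are overlapped on the opposite strand by Gm30003, an antisense RNA, over 267 bases. The sources used here do not say whether reads were counted by strand, so reads of such overlapping genes cannot be told apart.

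The genes whose log2 CPM was most like that of Eln over the 6 libraries were Col6a1, a chain of type VI collagen, Pltp, a phospholipid transfer protein of plasma lipoproteins, and Phyhd1, a dioxygenase of the phytanoyl-CoA hydroxylase family. Their Pearson r with Eln was 0.993, 0.988 and 0.984, as a description over 6 libraries that share depth and handling, among the 7627 genes whose log2 CPM averaged 4 or more. Col6a1 stood at 128, 160 and 109 CPM in the controls and at 139, 149 and 129 CPM after Wt1 siRNA. As for Eln, the controls spanned a wider range than the other group, and none of the 3 genes passed the test. Both traits come with choosing genes by their likeness to Eln and are no separate result.

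Fibrillins are large glycoproteins that polymerise into the microfibrils. Fbn1 encodes fibrillin-1, the main fibrillin of adult tissue and the gene mutated in Marfan syndrome (gene ID 14118; chromosome 2, 125300594 to 125506485). It measured 1939, 2285 and 1741 CPM in the controls and 3228, 3440 and 2692 CPM after Wt1 siRNA. Every Wt1 siRNA library was above every control. Fbn1 averaged 1989 ± 275 and 3120 ± 386 CPM (SD, n = 3), and its log2 fold change was 0.65 ± 0.13 (SE; edgeR adjusted p = 0.00383). Gm9913, annotated as protein-coding on the opposite strand, overlaps 2442 bases of Fbn1 exons, the longest such overlap among the 10 genes. Its own level was not analysed here.

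Fbn2 encodes fibrillin-2, the fibrillin of developing tissue (gene ID 14119; chromosome 18, 58008623 to 58210572). It was rare, with 137, 152 and 138 reads in the controls and 272, 314 and 302 reads after Wt1 siRNA. After TMM scaling these were 4.23, 5.35 and 5.19 CPM against 10.1, 11.4 and 9.45 CPM. The groups were well apart, with a log2 fold change of 1.07 ± 0.21 (SE; edgeR adjusted p = 0.00386). The antisense non-coding RNA Gm26507 overlaps 129 bases of its exons.

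The ratio of the 2 fibrillin genes within a library does not depend on library scaling. There were 0.218, 0.234 and 0.298 Fbn2 counts per 100 Fbn1 counts in the controls and 0.313, 0.331 and 0.351 after Wt1 siRNA. The groups did not overlap, although control library 3 came close to Wt1 siRNA library 4. The difference of the log2 ratio was 0.42, or 1.34-fold (exact permutation test, two-sided, p = 0.1, the smallest p that 3 against 3 libraries allow). Fbn1 held nearly all reads of the pair in both groups.

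Fbln5 encodes fibulin-5, a short fibulin that binds elastin, lysyl oxidase-like 1 and integrins through an RGD motif and is needed for elastic fibre formation (gene ID 23876; chromosome 12, 101746565 to 101819119). It measured 97.4, 88.9 and 83.4 CPM in the controls and 273, 285 and 231 CPM after Wt1 siRNA. The lowest Wt1 siRNA library was more than 2-fold above the highest control. The log2 fold change of 1.55 ± 0.12 (SE; edgeR adjusted p = 1.65e-05) was the largest among the 10 genes.

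Efemp2 encodes fibulin-4, a second short fibulin, which brings lysyl oxidase to elastin and is also needed for elastic fibre formation (gene ID 58859; chromosome 19, 5473946 to 5482520). It measured 221, 239 and 213 CPM in the controls and 161, 156 and 144 CPM after Wt1 siRNA. All Wt1 siRNA libraries were below all controls, and the means were 225 ± 13.5 and 154 ± 8.52 CPM (SD, n = 3). The log2 fold change was -0.55 ± 0.10 (SE; edgeR adjusted p = 0.00318). On the opposite strand Mus81, a DNA repair nuclease, overlaps the exons of Efemp2 by 173 bases. Mus81 had 12.6, 9.96 and 10.3 CPM in the controls and 8.63, 5.76 and 8.36 CPM after Wt1 siRNA. Its groups did not overlap either, and its log2 fold change of -0.53 ± 0.21 (SE) was near that of Efemp2 but did not pass (edgeR adjusted p = 0.106). Its part in the Efemp2 values was not tested.

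The genes for these 2 short fibulins changed in opposite directions. In the controls there were 0.440, 0.371 and 0.391 Fbln5 counts per Efemp2 count, and after Wt1 siRNA 1.70, 1.83 and 1.60. The less counted gene of the pair in the controls was therefore the more counted one after Wt1 siRNA, in all 3 libraries. This 4.27-fold shift does not depend on library scaling (log2 difference 2.09; exact permutation test, two-sided, p = 0.1, the smallest possible). Against elastin, Fbln5 went from 2.77, 1.70 and 3.34 counts per Eln count to 6.62, 6.54 and 6.46, a 2.61-fold shift (exact permutation test, two-sided, p = 0.1). Both pairs were chosen after their values were seen.

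**Figure D4:**
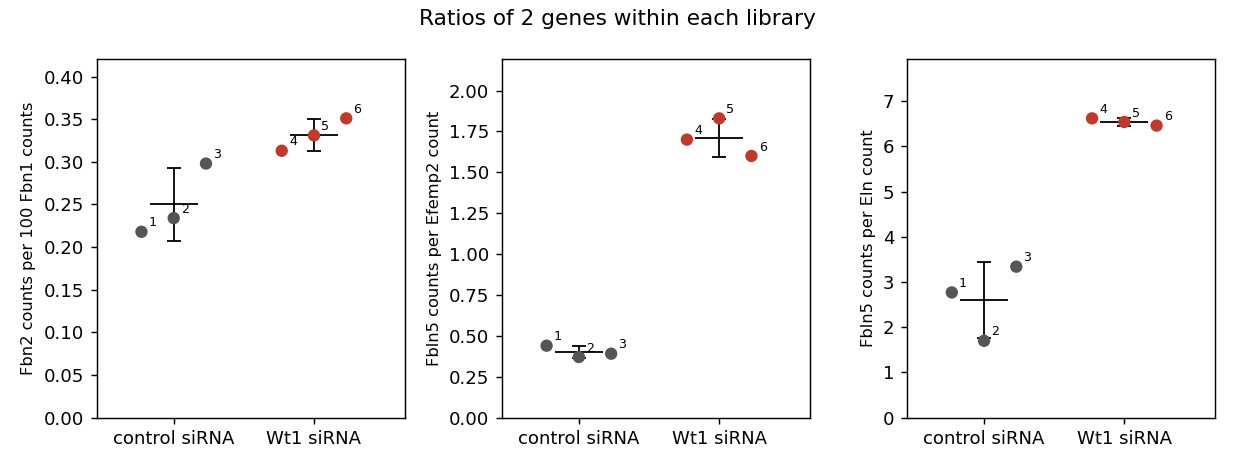
Counts of 1 gene per count (or per 100 counts) of another in the same library, for Fbn2 against Fbn1, Fbln5 against Efemp2 and Fbln5 against Eln, with numbered libraries and group mean and SD (n = 3) as bars. The groups do not overlap in any of the 3 panels, and Fbln5 per Efemp2 count moves from 0.371 to 0.440 in the controls up to 1.60 to 1.83 after Wt1 siRNA.

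WT1 belongs to a family of zinc finger factors that bind GC-rich DNA. The 250 bases before the most upstream annotated start of Fbln5 and of Efemp2 are shown because these short fibulins changed in opposite directions. Both stretches are from RefSeq on GRCm38.p6, 5′ to 3′ on the strand of the gene, and capitals mark the GC box GGGCGG on either strand. The Fbln5 stretch is chr12:101819120-101819369 on the minus strand and the Efemp2 stretch chr19:5473696-5473945 on the plus strand. The marked GC box is not one of the WT1 core forms searched for below, and neither stretch holds a match to those. Whether WT1 binds either stretch was not tested.
Fbln5: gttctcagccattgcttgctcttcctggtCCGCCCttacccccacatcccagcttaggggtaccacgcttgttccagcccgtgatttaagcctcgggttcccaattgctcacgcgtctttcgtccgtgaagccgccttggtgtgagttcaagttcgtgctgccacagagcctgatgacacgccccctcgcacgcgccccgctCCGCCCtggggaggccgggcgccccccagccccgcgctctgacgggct
Efemp2: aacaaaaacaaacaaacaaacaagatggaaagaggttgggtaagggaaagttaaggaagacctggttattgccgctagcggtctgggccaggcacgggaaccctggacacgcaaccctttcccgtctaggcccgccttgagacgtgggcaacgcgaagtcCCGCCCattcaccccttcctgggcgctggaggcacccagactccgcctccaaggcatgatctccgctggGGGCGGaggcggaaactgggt

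Each of these stretches holds 2 GC boxes, a motif found in 32.7% of 32851 promoter windows of the same length. Other annotated starts of these genes differ: the windows of the second and the third start of Efemp2 hold 5 GC boxes each, at 75.6% and 78.8% GC, and that of the second start of Fbln5 holds 0, at 49.6% GC. The 24 bases after the printed starts are in 0 GENCODE transcripts of either gene, while those after the second and the third start of Efemp2 are in 1 and 2. For Fbln5 neither start had such a transcript. Which start these fibroblasts use was not measured. The GC content of the printed stretches was 65.2% for Fbln5 and 59.2% for Efemp2, where the median of all windows was 52.4%. Windows of 7 of the 10 genes, with 11 annotated starts, were searched, and those of Eln, Fbn2 and Mfap5 were not. Both strands were searched for GCGTGGGNG and GCGGGGGNG, core forms of the sites bound by WT1 and the related EGR factors. Among all windows 1.65% held the first and 5.44% the second. Among the windows of these 7 genes only that of the second annotated start of Fbln1 held a match, to GCGGGGGNG, which overlaps a GC box. The absence of a match says only that these letters are not in these windows.

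Fbln2 encodes fibulin-2, a larger fibulin of basement membranes and elastic fibres, and it was the most counted of the 10 genes (gene ID 14115; chromosome 6, 91212460 to 91272540). It measured 2676, 3083 and 2446 CPM in the controls and 3376, 3738 and 3013 CPM after Wt1 siRNA. Control library 2 overlapped with Wt1 siRNA library 6. The log2 fold change was 0.30 ± 0.12 (SE; edgeR adjusted p = 0.0881), and without control library 2 it was 0.40 (edgeR adjusted p = 0.0252).

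Fbln1 encodes fibulin-1, which binds fibronectin and elastin (gene ID 14114; chromosome 15, 85205949 to 85286294). Its values were 16.0, 14.5 and 19.5 CPM in the controls and 11.3, 11.7 and 14.5 CPM after Wt1 siRNA. The groups met where Wt1 siRNA library 6 and control library 2 were both at 14.5 CPM. The log2 fold change was -0.41 ± 0.18 (SE; edgeR adjusted p = 0.131), with a 95% interval of -0.80 to -0.02.

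Efemp1 encodes fibulin-3, a short fibulin close to fibulin-4 (gene ID 216616; chromosome 11, 28853154 to 28926743). It measured 47.4, 50.0 and 37.2 CPM in the controls and 59.9, 54.9 and 45.9 CPM after Wt1 siRNA. Library 6 lay among the controls, and the log2 fold change of 0.26 ± 0.14 (SE; edgeR adjusted p = 0.253) had a 95% interval of -0.06 to 0.57.

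Emilin1 encodes EMILIN-1, a glycoprotein at the interface of elastin and microfibrils that also restrains the processing of pro-TGF-beta (gene ID 100952; chromosome 5, 30913387 to 30921279). It measured 136, 187 and 157 CPM in the controls and 100, 110 and 116 CPM after Wt1 siRNA. The groups did not overlap, and the means were 160 ± 25.8 and 109 ± 8.28 CPM (SD, n = 3). The log2 fold change was -0.55 ± 0.13 (SE; edgeR adjusted p = 0.0106). Without Wt1 siRNA library 4 it was -0.49, and the call was lost (edgeR adjusted p = 0.0790).

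Mfap5 encodes MAGP-2, a small glycoprotein bound to the fibrillin microfibril (gene ID 50530; chromosome 6, 122513584 to 122529290). Relative to its mean it varied least within the groups, with 244, 238 and 230 CPM in the controls and 197, 196 and 204 CPM after Wt1 siRNA. Every Wt1 siRNA library was below every control, by a log2 fold change of -0.25 ± 0.10 (SE) that did not pass (edgeR adjusted p = 0.0847). It passed with DESeq2 (adjusted p = 0.0499) and with edgeR on library size scaling alone (-0.34, adjusted p = 0.0353).

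Fbn1 and Fbln2 dominated the reads of the family. The 10 genes summed to 5416, 6244 and 4957 CPM in the controls and to 7458, 8047 and 6506 CPM after Wt1 siRNA. Of these sums Fbn1 and Fbln2 made up 84.5% to 86.0% in the controls and 87.7% to 89.2% after Wt1 siRNA. The mean share of Fbn1 alone was 35.8% in the controls and 42.5% after Wt1 siRNA, that of Fbln5 was 1.63% and 3.58%, and that of Efemp2 was 4.07% and 2.10%.

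The members tended to share their highest and lowest control libraries and their lowest Wt1 siRNA library. Control library 2 was the highest control for 7 of the 10 genes (Eln, Fbn1, Fbn2, Fbln2, Efemp1, Efemp2 and Emilin1), where it was the highest for 35.5% of all genes tested. Control library 3 was the lowest for 7 (Eln, Fbn1, Fbln2, Fbln5, Efemp1, Efemp2 and Mfap5), against 28.9% of all genes. Among the Wt1 siRNA libraries, library 6 was the lowest for 7 (Eln, Fbn1, Fbn2, Fbln2, Fbln5, Efemp1 and Efemp2), against 36.0% of all genes. Fbln1 went the other way in both groups, being highest in libraries 3 and 6. Emilin1 and Mfap5 were also highest in library 6 among the Wt1 siRNA libraries. These counts describe 6 libraries and carry no test.

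Other genes that build, crosslink or break down elastic fibres were taken from 9 lists with 69 genes, of which 68 had a row and 61 were tested. Of these 15 were higher (24.6%, against 9.05% of all genes) and 8 lower (13.1%, against 10.3%), with a median log2 fold change of 0.06. Without Wt1 siRNA library 4, 9 were higher and 5 lower, where 3.96% and 5.37% of all genes were. With library size scaling alone 10 were higher and 13 lower, where 6.03% and 12.9% of all genes were, so that the split between higher and lower turned. Hmcn2 was not analysed here. The lists were chosen with earlier results of these data known, so the shares here and below only describe the chosen genes.

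Most lysyl oxidase genes rose. These are the enzymes that oxidise lysines of elastin and collagen before crosslinking. Of 5 genes 3 were higher and 1 lower, with a median of 0.85, where 9.05% of all genes were higher and 10.3% lower. Lox measured 5169 ± 474 CPM in the controls and 9297 ± 1149 CPM after Wt1 siRNA (SD, n = 3; log2 fold change 0.85 ± 0.11 SE, edgeR adjusted p = 4.52e-04). Loxl2 went from 1340 ± 83.9 to 2760 ± 141 CPM (1.04 ± 0.10), and Loxl4 from 17.7 ± 0.428 to 51.9 ± 6.70 CPM (1.55 ± 0.13). Loxl3 fell by 0.44 ± 0.12 on the log2 scale (edgeR adjusted p = 0.0214), a call lost on leaving out library 2, 3, 4 or 6 (edgeR adjusted p = 0.0505, 0.0507, 0.113 and 0.0671). Loxl1, the family member with the closest tie to elastin and a binding partner of fibulin-5, had 208, 243 and 201 CPM in the controls and 179, 186 and 181 CPM after Wt1 siRNA. Those groups did not overlap, but the log2 fold change of -0.26 ± 0.11 did not pass (edgeR adjusted p = 0.115), except with library size scaling alone (0.0391).

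Genes for microfibril proteins and for enzymes that act on them were split. Of 13 genes 4 were higher and 1 lower, with a median of 0.18, where 9.05% of all genes were higher and 10.3% lower. Furin, the protease that trims pro-fibrillin, rose from 87.4 ± 8.89 to 140 ± 3.48 CPM (0.68 ± 0.11, edgeR adjusted p = 0.00123). Adamts10, which binds fibrillin-1 and favours microfibril formation, rose by 0.72 ± 0.20, and Adamts6, its close relative, by 0.63 ± 0.16. Mfap4, a glycoprotein that binds elastin and fibrillin, fell from 44.4 ± 10.1 to 26.8 ± 2.61 CPM (-0.73 ± 0.16, edgeR adjusted p = 0.00911). The call of Adamts10 (edgeR adjusted p = 0.0233) was lost on leaving out library 1, 3, 4 or 5 (0.0768, 0.0853, 0.0883 and 0.0818). The call of Adamts6 was lost without Wt1 siRNA library 4 (edgeR adjusted p = 0.0943) or library 6 (0.0653), and with library size scaling alone (0.0504). That of Mfap4 was lost without Wt1 siRNA library 4 (0.0570).

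The latent TGF-beta binding proteins are relatives of the fibrillins that tether TGF-beta to microfibrils. Of 4 genes 1 was higher, where 9.05% of all genes were. This was Ltbp1, from 478 ± 44.7 to 635 ± 58.7 CPM (0.41 ± 0.11, edgeR adjusted p = 0.0228). The call was lost on leaving out library 1, 4 or 5 (edgeR adjusted p = 0.0659, 0.0843 and 0.0943), and with library size scaling alone (0.0501). Among the other fibulins Hmcn1, hemicentin-1 or fibulin-6, rose from 91.5 ± 10.4 to 152 ± 6.85 CPM (0.73 ± 0.11, edgeR adjusted p = 0.00103). Fbln7 measured 14.0 ± 3.01 CPM in the controls and 9.65 ± 1.99 CPM after Wt1 siRNA, and the groups did not overlap. Its log2 fold change of -0.54 ± 0.22 did not pass (edgeR adjusted p = 0.105). Of the other EMILINs and multimerins, Emilin2 and Mmrn2 were tested and neither passed by edgeR, DESeq2 or limma-voom, nor at an unadjusted p below 0.05. Emilin2 measured 24.7 ± 1.57 and 20.2 ± 2.15 CPM (edgeR adjusted p = 0.173). Emilin3 had 0 counts in all libraries.

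Genes that limit elastin breakdown were mostly lower. Of 7 tested inhibitor genes 4 were lower and 1 higher, with a median of -0.89, where 10.3% of all genes were lower and 9.05% higher. Timp1, an inhibitor of matrix metalloproteinases, fell from 1283 ± 151 to 538 ± 136 CPM (-1.25 ± 0.16, edgeR adjusted p = 3.31e-04). Timp3, which is bound to the matrix, fell from 2314 ± 152 to 1247 ± 96.8 CPM (-0.89 ± 0.10), and A2m, a broad protease inhibitor, by 1.62 ± 0.31 on the log2 scale. Slpi, an inhibitor of neutrophil elastase, fell by 1.29 ± 0.29, while Timp2 rose by 0.44 ± 0.10 (edgeR adjusted p = 0.00862). The call of Timp2 was lost without Wt1 siRNA library 4 (edgeR adjusted p = 0.0585).

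Of 9 tested proteases with elastase activity 1 was higher and 2 lower (edgeR), with a median of -0.39. Among all genes 9.05% were higher and 10.3% lower. With DESeq2, and at an unadjusted p below 0.05, there were 3 higher and 2 lower, and with limma-voom 2 and 2. Among all 14190 genes DESeq2 called 1575 higher and 1702 lower, and limma-voom 1371 and 1452. No number for all genes is given here for the unadjusted p, so those counts have no background. Ctsk, cathepsin K, went from 178 ± 38.9 to 253 ± 54.5 CPM (0.51 ± 0.17, edgeR adjusted p = 0.0581). It passed with DESeq2 and limma-voom. Mmp9, with few reads, went from 0.657 ± 0.0932 to 1.76 ± 0.32 CPM (1.42 ± 0.53, edgeR adjusted p = 0.0842). That gene passed with DESeq2 and with edgeR under the stricter filter. Mmp2, gelatinase A, fell from 271 ± 32.3 to 189 ± 10.9 CPM (-0.52 ± 0.11, edgeR adjusted p = 0.00765), and Mmp14, its membrane-bound activator, by 0.39 ± 0.10. Ctsl, the lysosomal cathepsin L, rose from 850 ± 86.6 to 1119 ± 51.7 CPM (0.40 ± 0.10, edgeR adjusted p = 0.0204). Elane, the neutrophil elastase gene, had 0 counts in all libraries, and Mmp12, the macrophage elastase, had at most 3.72 CPM. The call of Mmp14 was lost on leaving out library 1, 4 or 5 (edgeR adjusted p = 0.0864, 0.0927 and 0.0886). The call of Ctsl was lost on leaving out library 3, 4 or 6 (0.0723, 0.0741 and 0.0585), and with library size scaling alone (0.0755).

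Integrins are the cell's receptors for fibrillins and fibulins. Of 9 chains 2 were higher and 0 lower (edgeR), where 9.05% of all genes were higher and 10.3% lower. At an unadjusted p below 0.05 there were 2 lower, with DESeq2 1 (Itga9) and with limma-voom 0. Itga9 was also called by edgeR with either other scaling or the stricter filter. Among all 14190 genes 1702 were lower with DESeq2 and 1452 with limma-voom. No number for all genes is given here for the unadjusted p. Itgav, the alpha-v chain, rose from 481 ± 72.9 to 747 ± 55.7 CPM (0.63 ± 0.12, edgeR adjusted p = 0.00388), and Itgb1, the beta-1 chain, from 3295 ± 192 to 4654 ± 317 CPM (0.50 ± 0.10, edgeR adjusted p = 0.00386). Among 10 genes of secretion, folding and proline synthesis, most of them mutated in cutis laxa or related disorders, 2 were higher and 0 lower (edgeR, with 0 lower by DESeq2 and limma-voom and 1 at an unadjusted p below 0.05). Slc2a10, the transporter lost in arterial tortuosity syndrome, rose from 13.5 ± 1.40 to 24.5 ± 5.04 CPM (0.86 ± 0.18, edgeR adjusted p = 0.00562). Fkbp10, a prolyl isomerase of the endoplasmic reticulum, rose by 0.35 ± 0.10 (edgeR adjusted p = 0.0316), a call lost under 5 of 13 alternatives. Atp6v1a, a proton pump subunit and the most counted of these genes, had 290 ± 26.0 and 314 ± 10.6 CPM (edgeR adjusted p = 0.485).

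**Figure D5:**
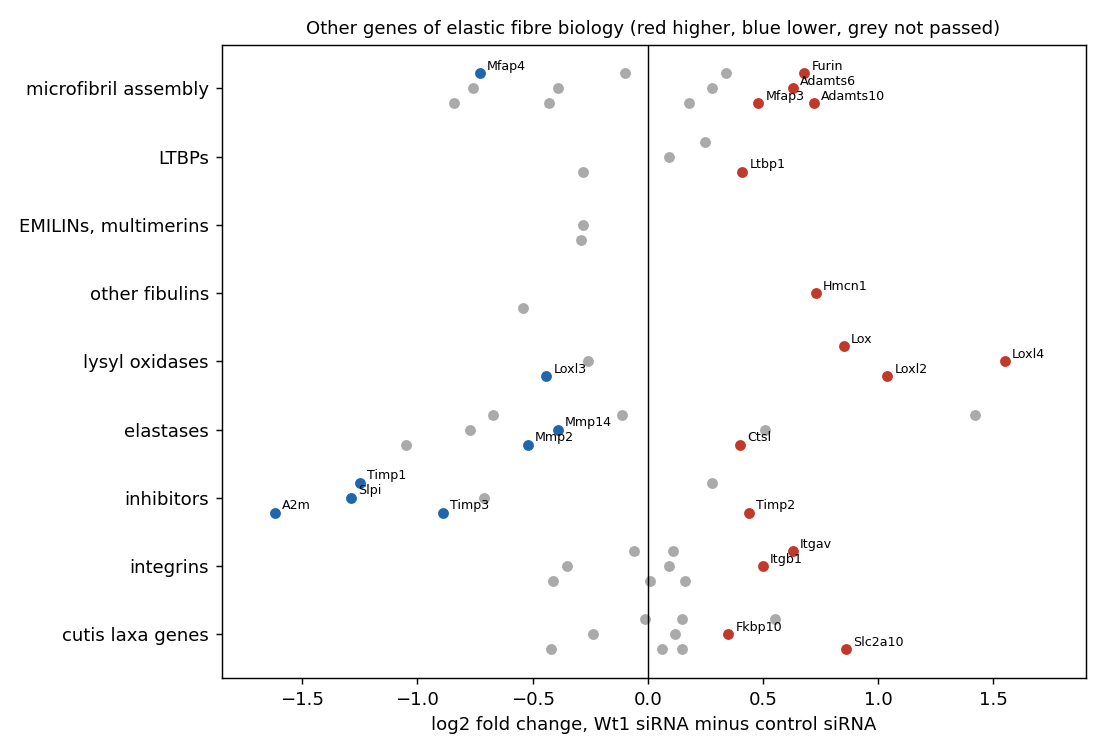
Log2 fold change (horizontal axis, Wt1 siRNA minus control siRNA) of the 61 tested genes of the 9 lists, 1 point per gene, with called genes named. Lox, Loxl2 and Loxl4 lie to the right among the lysyl oxidases, and A2m, Slpi, Timp1 and Timp3 to the left among the inhibitors.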

How the data were processed

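RNA of 6 libraries (3 control siRNA, 3 Wt1 siRNA) was analysed. The authors deposited whole-number counts of reads per Entrez gene, not normalized. Tools listed in the submitters' processing notes, with no role, are bcl2fastq, TopHat, CASAVA 1.8 and DESeq, on build mm10 (GRCm38). No counting tool or annotation is named there. Symbols came from RefSeq for GRCm38.p6 (23976 of 24061 IDs), and exon lengths, merged over transcripts, from GENCODE. Transcripts of the 10 members shared no stretch of 40 bases in any of 45 pairs.

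Groups were compared by the edgeR 4.0.16 quasi-likelihood test (R 4.3.3) with TMM scaling, filterByExpr (14190 genes) and Benjamini-Hochberg adjustment over all genes; CPM use the TMM factors (0.940 to 1.07). SE is the log2 fold change over the square root of F. On counts simulated for these 14190 genes, the test recovered 31.0% of 1.5-fold, 65.5% of 2-fold and 86.0% of 4-fold changes. Each simulation changed a smaller share of genes than the 19.3% called in the data, so these rates need not hold for this comparison. Alternatives were DESeq2 1.42.0, limma-voom (limma 3.58.1), 2 other scalings, 2 other filters, a robust fit and each library left out.

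The members and lists were chosen with earlier results of these data known. Named pathway genes were the up to 3 with the smallest p among called genes of a list, and its most counted gene. Others were named after their values were seen. Among these are Slpi, Timp2, Loxl1, Loxl3, Adamts10, Fbln7, Mmrn2, Mmp9, Mmp12, Elane, Ctsk, Itga9 and the marker genes.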

Additional observations from a re-analysis of the deposited data

How the results depend on the processing

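Among the 10 members, 125 of 130 values (10 genes under 13 alternatives) kept their direction and their side of the threshold. Fbn1, Fbn2 and Fbln5 were higher and Efemp2 was lower in all 13. Eln changed sign without control library 3 (-0.12, from 0.10), where its adjusted p by edgeR was 0.735, and ranged from -0.12 to 0.42 with a library left out. The number of members that were lower was 1 to 2 with a library left out (1 without Wt1 siRNA library 4), and the number higher was 3 to 4. Of the pathway genes 9 to 15 were higher and 5 to 8 lower with a library left out. Among all genes 3.96% to 8.61% were higher and 5.37% to 9.66% lower with a library left out. With library size scaling, which moved the median of all genes to -0.08, 10 pathway genes were higher and 13 lower. Among all genes 6.03% were higher and 12.9% lower with that scaling. Of the uncalled pathway genes only Atp6v1a, Emilin2, Fbln7, Itga9, Loxl1, Mmp12 and Mmrn2 were followed gene by gene for a change of sign. Among these, Mmrn2 changed sign without control library 3 (0.01), in a range of -0.61 to 0.01 with a library left out. Mmp12 changed sign without Wt1 siRNA library 5 (0.23), in a range of -0.55 to 0.23. Sign changes of the other uncalled pathway genes were not looked for. The log2 difference of the Fbn2 to Fbn1 ratio was 0.33 to 0.55 with a library left out. For all genes, 578 were higher and 785 lower without Wt1 siRNA library 4, against 1284 and 1459. No paired analysis was possible because the groups share no replicate number. Depth limits Fbn2, with 137 to 314 reads per library, most among the members.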
